A study of Homo sapiens with 12 samples.

Results

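The 8 genes described here are targets of NRF2, the transcription factor that switches on antioxidant and detoxifying genes: HMOX1 (gene ID 3162), SRXN1 (140809), GCLC (2729), GCLM (2730), TXNRD1 (7296), SLC7A11 (23657), OSGIN1 (29948) and AKR1C1 (1645). They were chosen by symbol, with earlier results of these data known. All 8 were among the 3699 genes of the deposited table and passed the filter on low counts. RNA was sequenced in 12 libraries of SW480, a line derived from a human colorectal adenocarcinoma. The 4 groups of 3 libraries were untreated cells, cells given PUE, cells given GLY, and cells given both (GLY_PUE); the labels do not spell out either abbreviation. The protocol gives 12 h of growth in medium with 10% serum followed by 12 h with or without treatment for every group, but the sample labels give 12 h for GLY replicate 1, 13 h for GLY replicate 2 and 14 h for GLY replicate 3. No dose is stated, all groups are 1 cell line, and nothing says that replicates were separate cultures, so a p-value here speaks only to variation among these libraries, possibly technical.

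Under resting conditions the sensor KEAP1 holds NRF2, encoded by NFE2L2, and hands it to the proteasome. Oxidants and electrophiles modify cysteines of KEAP1, NRF2 then accumulates, pairs with a small MAF protein and binds antioxidant response elements near its target genes. Those targets make glutathione, recycle thioredoxin and peroxiredoxin, degrade haem and reduce reactive carbonyls, and in colorectal and other tumours the same programme is known for protecting cells against oxidative injury.

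Library totals, recovered from the ratio of read count to expression value, were 19.7 to 21.4 M reads, of which the listed genes held 13.8% to 15.4%, and a count of 0 allowed up to 0.152 CPM (counts per M reads, scaled to the recovered library total; counting error only). Every listed gene passed the authors' limits in at least 1 of 6 comparisons, so a share of called genes here describes a list selected for change. The median log2 change of the 3429 genes tested was -1.15 for GLY against untreated. TMM scaling, which centres the table on itself, moved that median to -0.02 and the calls from 674 higher and 2216 lower to 812 higher and 346 lower. GLY replicate 1 stood apart from the other GLY libraries, and the libraries numbered 3 differed from those numbered 1 and 2; values without them are given where they end or add a call. Of 12 colon epithelial markers, 4 were in the table (ASCL2, CDX2, LGR5 and VIL1) and their summed level was 152 to 206 CPM in untreated, 147 to 214 in PUE, 22.8 to 41.7 in GLY and 24.3 to 27.3 CPM in GLY_PUE libraries. Of 11 leukocyte markers, 2 were in the table and moved in opposite directions with GLY: CD14 fell by 3.01 and CD68, which made up nearly all of their sum, rose by 2.16 on the log2 scale (edgeR adjusted p = 0.000594 and 5.46e-05). CD14 was at 0.838 to 0.995 CPM in untreated and 0.0469 to 0.189 CPM in GLY libraries, around the 0.152 CPM that a count of 0 allowed. The sum of the 2 markers was 4.63 to 6.91 CPM in untreated, 5.37 to 5.99 in PUE, 17.1 to 24.4 in GLY and 17.8 to 23.5 CPM in GLY_PUE libraries. Of 10 fibroblast markers, PDGFRB was in the table, at 0.838 to 0.995 CPM in untreated, 0.689 to 0.915 in PUE, 1.64 to 3.57 in GLY and 1.74 to 3.74 CPM in GLY_PUE libraries. None of 7 endothelial markers was among the listed genes, and markers outside the table were not analysed here. The part of these shifts in the results was not tested, and in bulk RNA fewer cells of a type and less RNA per cell cannot be told apart.

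To show the sequence that NRF2 is known to read, promoter windows from RefSeq (GRCh38.p14, 250 bases before to 50 bases after a start site) were searched on both strands for the core of the antioxidant response element, TGACNNNGC. Windows matched for 6 of the 8 genes (not HMOX1 or SLC7A11). The core occurred in 3 windows of 2 genes, 1 for GCLM and both for TXNRD1, and in 13.3% of the 34796 windows of the same length. No match lay in the windows of SRXN1, GCLC, OSGIN1 or AKR1C1, which says only that these letters are not in those windows. The windows of GCLC, GCLM and TXNRD1 are printed because these genes had the like profiles across the 12 libraries given further on, 2 of them with the core and GCLC without it, and the window of OSGIN1 because its levels across libraries differed from theirs. Each line runs 5′ to 3′ on the gene's strand, from 250 bases before the start site to 10 bases after it, with the antioxidant core in capitals; in OSGIN1 the capitals mark the AP-1 letters TGANTCA, present in 7.73% of windows.
GCLC, chr6:53545092-53545351, minus strand: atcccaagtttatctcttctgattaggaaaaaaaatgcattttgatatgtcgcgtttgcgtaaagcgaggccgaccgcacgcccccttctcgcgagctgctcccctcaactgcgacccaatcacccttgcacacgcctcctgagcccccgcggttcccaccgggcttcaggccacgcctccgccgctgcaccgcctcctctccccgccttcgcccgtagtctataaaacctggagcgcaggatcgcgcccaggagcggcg
GCLM, chr1:93909421-93909680, minus strand: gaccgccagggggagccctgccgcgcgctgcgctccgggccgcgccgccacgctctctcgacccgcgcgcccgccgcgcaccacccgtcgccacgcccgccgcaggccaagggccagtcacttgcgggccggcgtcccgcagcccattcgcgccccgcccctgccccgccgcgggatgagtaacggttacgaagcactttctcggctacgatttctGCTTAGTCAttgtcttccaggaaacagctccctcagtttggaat
TXNRD1 upstream start, chr12:104215529-104215788, plus strand: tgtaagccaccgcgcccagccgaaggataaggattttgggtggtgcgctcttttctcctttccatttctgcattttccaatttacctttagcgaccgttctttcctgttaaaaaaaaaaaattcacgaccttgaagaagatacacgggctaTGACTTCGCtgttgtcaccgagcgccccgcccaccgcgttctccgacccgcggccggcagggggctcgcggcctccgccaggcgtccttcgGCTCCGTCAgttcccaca
TXNRD1 downstream start, chr12:104286782-104287041, plus strand: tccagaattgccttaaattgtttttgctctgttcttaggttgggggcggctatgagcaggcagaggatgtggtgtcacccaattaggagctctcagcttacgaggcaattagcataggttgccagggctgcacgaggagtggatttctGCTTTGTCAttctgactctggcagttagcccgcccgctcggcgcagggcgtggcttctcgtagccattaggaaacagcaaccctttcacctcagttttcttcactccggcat
OSGIN1, chr16:83952990-83953249, plus strand: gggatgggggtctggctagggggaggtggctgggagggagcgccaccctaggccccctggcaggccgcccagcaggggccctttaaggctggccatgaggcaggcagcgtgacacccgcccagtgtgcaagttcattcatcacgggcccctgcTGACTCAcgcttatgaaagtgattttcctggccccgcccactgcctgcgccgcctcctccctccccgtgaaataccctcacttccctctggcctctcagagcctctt
In GCLM the match, GCTTAGTCA on the opposite strand, began 34 bases before the start site. The upstream TXNRD1 window held TGACTTCGC from 99 bases before the start and GCTCCGTCA from 8 bases before it, which runs over the start site, and the downstream window held GCTTTGTCA from 102 bases before it. The AP-1 letters of OSGIN1 began 97 bases before its start. Neither the composite element read by ATF4 (TGATGNAA, in 3.63% of windows) nor the AP-1 letters occurred in the GCLM or TXNRD1 windows, and the heat shock core GAANNTTC (6.79% of windows) was found in AKR1C1 alone among the 6 genes. The files name no genome build, so these matches describe the reference and no binding was measured.

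The changes in these genes went with GLY. Against untreated cells, 5 of the 8 rose with GLY: HMOX1, SRXN1, OSGIN1, GCLC and TXNRD1, where 19.7% of all genes tested rose. GCLM, SLC7A11 and AKR1C1 had log2 fold changes of 0.81, 0.67 and 0.66 that did not pass. The median over the 8 was 1.14 on the log2 scale, beside -1.15 over all genes. GLY_PUE against PUE, which shares no library with that comparison, had 6 of 8 higher, all but SLC7A11 and OSGIN1, where 20.6% of all genes rose, and a median of 1.20 beside -1.05. GLY_PUE against untreated had 7 of 8 higher, all but AKR1C1, where 20.2% of all genes rose, and a median of 1.30 beside -1.03. None of the 8 fell in these comparisons, where 64.6%, 57.3% and 57.1% of all genes fell, and none passed the test for PUE against untreated or GLY_PUE against GLY. Under TMM scaling the genes called higher and lower went from 705 and 1964 to 830 and 402 for GLY_PUE against PUE and from 694 and 1957 to 817 and 394 for GLY_PUE against untreated. All 8 then rose in each of the 3 comparisons, with medians of 2.19, 2.19 and 2.27 beside -0.02 over all genes. GCLM and SLC7A11 entered the table only by the authors' limits for GLY_PUE over untreated. AKR1C1 entered only by GLY over PUE and GLY_PUE over PUE. The calls of these genes in the comparison that admitted them are not independent of how the table was selected. Because the 8 genes were chosen with earlier results known, their counts and medians beside those of all genes are descriptions.

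**Figure D1:**
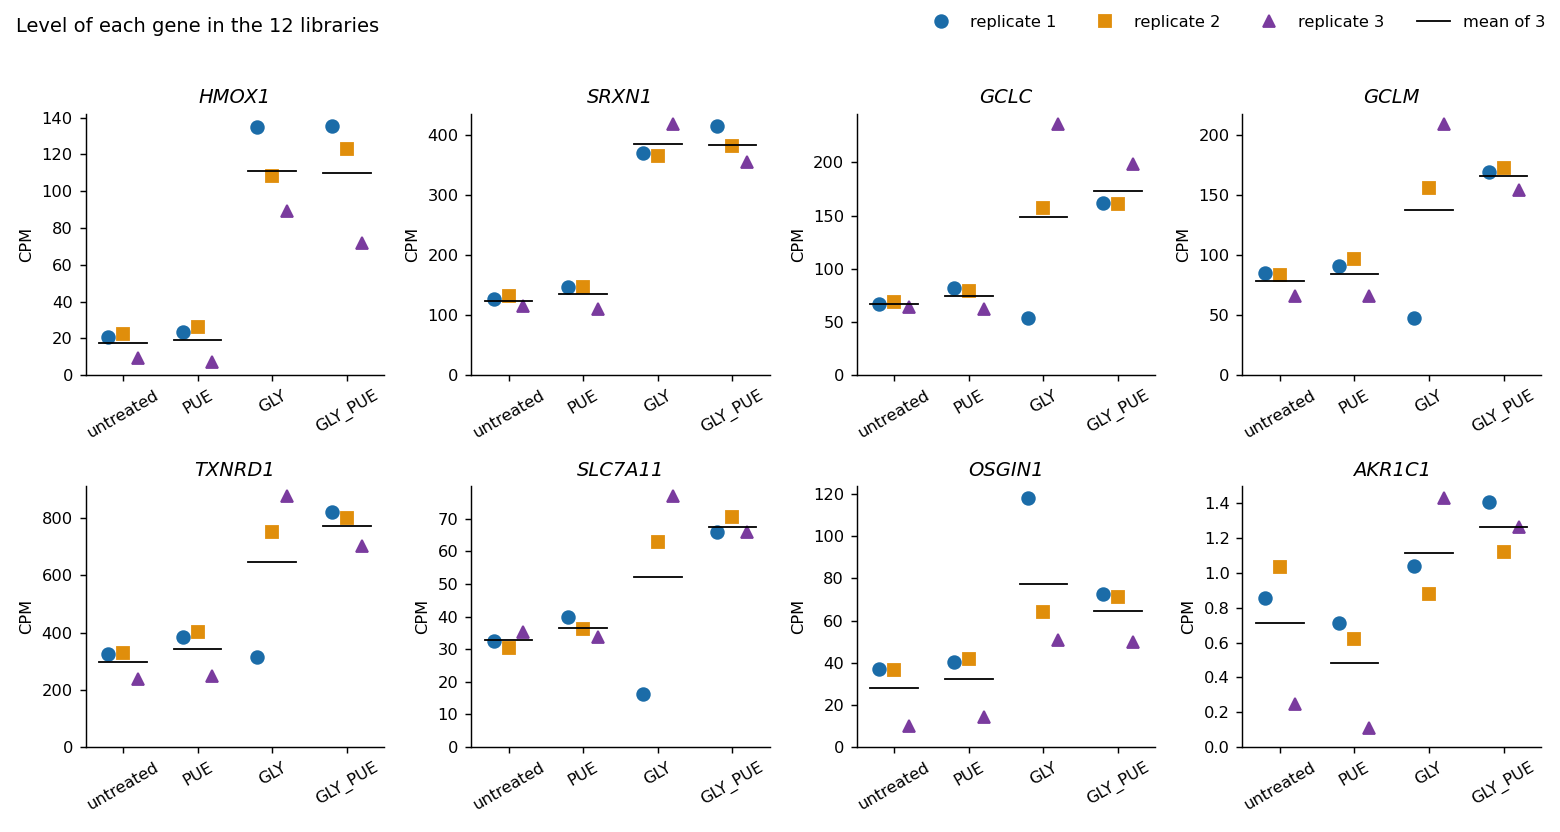
Level of the 8 genes in CPM (y axis from 0, 1 panel per gene) in the 12 libraries by group (x axis); each point is a library, its shape and colour the replicate number, and bars are means of 3. In all 8 panels every GLY_PUE library lies above every untreated and PUE library, and GLY replicate 1 drops to 53.2, 47.5, 313 and 16.4 CPM for GCLC, GCLM, TXNRD1 and SLC7A11.

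HMOX1, the enzyme that opens haem to give biliverdin, iron and carbon monoxide, had the largest change of the 8. Its level in untreated replicates 1, 2 and 3 was 20.6, 22.3 and 9.27 CPM, and with PUE it was 23.5, 26.3 and 6.91 CPM. With GLY it reached 135, 108 and 89.5 CPM, and with GLY_PUE 135, 123 and 71.6 CPM. Every library with GLY was above every library without it, and the library numbered 3 was the lowest of each group. The log2 fold change for GLY against untreated was 2.67 ± 0.49 (SE; edgeR adjusted p = 0.000634) and for GLY_PUE against PUE 2.54 ± 0.48 (edgeR adjusted p = 0.000904).

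SRXN1, sulfiredoxin, which restores overoxidised peroxiredoxins, had the smallest standard errors of the 8. Untreated replicates stood at 126, 131 and 114 CPM and PUE replicates at 147, 147 and 109 CPM. GLY replicates stood at 369, 365 and 419 CPM and GLY_PUE replicates at 414, 382 and 355 CPM. The groups with and without GLY did not overlap, and GLY replicate 1 lay between the other GLY libraries. SRXN1 rose by 1.63 ± 0.20 (SE, log2) with GLY (edgeR adjusted p = 6.36e-05) and by 1.51 ± 0.20 with GLY in the presence of PUE (edgeR adjusted p = 0.000115).

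Glutamate-cysteine ligase makes the first and rate-limiting bond of glutathione from a catalytic subunit, GCLC, and a modifier subunit, GCLM. GCLC was at 66.8, 68.8 and 63.7 CPM in untreated and 81.8, 79.1 and 61.8 CPM in PUE libraries. With GLY it was at 53.2, 157 and 236 CPM, and with GLY_PUE at 162, 160 and 198 CPM. GLY replicate 1 thus lay below every untreated library, while GLY replicates 2 and 3 and all GLY_PUE libraries lay above the untreated range. GCLC rose by 1.16 ± 0.39 (SE, log2) with GLY (edgeR adjusted p = 0.0164) and by 1.22 ± 0.39 for GLY_PUE against PUE (edgeR adjusted p = 0.0141). The first of these calls ended without GLY replicate 3 (0.66, edgeR adjusted p = 0.105) and in all 3 limma fits: voom on the counts (0.92, adjusted p = 0.0540) and log2(expression value + 0.1) or + 1 (0.92 and 0.89, adjusted p = 0.0527 and 0.0537). The second ended without PUE replicate 3 (1.11, edgeR adjusted p = 0.0513), and both ended without the libraries numbered 3 (0.64 and 1.00, edgeR adjusted p = 0.222 and 0.0855).

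The modifier subunit shared the low value of GLY replicate 1 but not the order of the GLY_PUE libraries, where replicate 3 was the highest for GCLC and the lowest for GCLM. GCLM was at 85.4, 83.4 and 66.2 CPM in untreated, 91.1, 96.4 and 66.2 CPM in PUE, 47.5, 155 and 209 CPM in GLY, and 169, 173 and 154 CPM in GLY_PUE replicates 1, 2 and 3. Again GLY replicate 1 was the lowest of all 12 libraries, and the GLY group overlapped the untreated group through it alone. GCLM passed for GLY_PUE against PUE (0.97 ± 0.40 SE, edgeR adjusted p = 0.0406), a call that ended in 10 of 25 alternatives, with edgeR adjusted p up to 0.144; all 10 left out libraries. It passed for GLY_PUE against untreated (1.08, edgeR adjusted p = 0.0270), which ended in 5 of 25, all with libraries left out. For GLY against untreated it missed (0.81 ± 0.40 SE, edgeR adjusted p = 0.0715), and without GLY replicate 1 it passed at 1.22 (edgeR adjusted p = 0.000425).

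Per unit of transcript length, as the authors' expression values give it, GCLC exceeded GCLM in every library. The ratio of GCLC to GCLM was 1.15 to 1.42 in untreated, 1.22 to 1.41 in PUE, 1.50 to 1.67 in GLY and 1.36 to 1.91 in GLY_PUE libraries. The GLY range lay above both groups without GLY, and the GLY_PUE range overlapped them; GLY replicate 1, low for both subunits, had a ratio of 1.63, between those of the other GLY libraries.

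SLC7A11 is the light chain of the cystine-glutamate exchanger that brings in cystine for glutathione. It stood at 32.5, 30.5 and 35.3 CPM in untreated and 39.8, 36.2 and 33.9 CPM in PUE libraries. With GLY it stood at 16.4, 62.9 and 76.9 CPM, and with GLY_PUE at 65.8, 70.4 and 66.0 CPM. GLY replicate 1 was the lowest of all 12 libraries, and every other library with GLY was above the whole range without it. SLC7A11 did not pass for GLY against untreated (0.67 ± 0.40 SE, edgeR adjusted p = 0.132) or for GLY_PUE against PUE (0.88 ± 0.40 SE, edgeR adjusted p = 0.0612). Without GLY replicate 1, whose spread enters the fit of all groups, both passed, at 1.09 (edgeR adjusted p = 0.000112) and 0.88 (edgeR adjusted p = 0.000162). SLC7A11 passed for GLY_PUE against untreated (1.04, edgeR adjusted p = 0.0335), which ended in 7 of 25 alternatives, all with libraries left out. Its heavy chain partner SLC3A2, from the glutathione list, rose by 1.12 ± 0.24 (SE, log2) with GLY (edgeR adjusted p = 0.00176), from 792, 793 and 528 CPM in untreated to 1975, 1311 and 1323 CPM in GLY libraries, so GLY replicate 1 was the highest for the heavy chain and the lowest for the light chain.

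TXNRD1, the cytosolic thioredoxin reductase that passes electrons from NADPH to thioredoxin, was the most abundant of the 8 per unit of length. Its levels were 325, 330 and 239 CPM in untreated, 383, 401 and 247 CPM in PUE, 313, 751 and 878 CPM in GLY, and 821, 798 and 701 CPM in GLY_PUE replicates 1, 2 and 3. GLY replicate 1 lay inside the untreated range, and the other 5 libraries with GLY lay above every library without it. TXNRD1 rose by 1.12 ± 0.34 (SE, log2) with GLY (edgeR adjusted p = 0.00946) and by 1.17 ± 0.34 for GLY_PUE against PUE (edgeR adjusted p = 0.00823). The first call ended without the libraries numbered 3, where GLY replicate 1 is 1 of 2 GLY libraries (0.70, edgeR adjusted p = 0.119).

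OSGIN1, oxidative stress induced growth inhibitor, restrains proliferation. It was at 36.9, 36.7 and 9.86 CPM in untreated, 40.3, 41.9 and 14.2 CPM in PUE, 118, 63.9 and 50.6 CPM in GLY, and 72.8, 71.3 and 49.7 CPM in GLY_PUE replicates 1, 2 and 3. The library numbered 3 was the lowest of each group, GLY replicate 1 was the highest of all 12, and groups with and without GLY did not overlap. OSGIN1 rose by 1.48 ± 0.52 (SE, log2) with GLY (edgeR adjusted p = 0.0200). That call ended without GLY replicate 1 (1.04, edgeR adjusted p = 0.0912) and without untreated replicate 3 (1.07, edgeR adjusted p = 0.0599). For GLY_PUE against PUE it missed (1.01 ± 0.52 SE, edgeR adjusted p = 0.0848) and passed with the replicate number as a block (1.16, edgeR adjusted p = 0.00641). It passed for GLY_PUE against untreated (1.22, edgeR adjusted p = 0.0469), which ended in 7 of 25 alternatives, each with 1 library left out.

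AKR1C1, an aldo-keto reductase of carbonyls and steroids, was close to the detection limit. Its estimated counts were 17.31, 20.75 and 5.05 reads in untreated, 14.29, 12.67 and 2.18 in PUE, 22.03, 18.75 and 30.51 in GLY, and 30.03, 23.79 and 26.71 reads in GLY_PUE replicates 1, 2 and 3. The GLY_PUE libraries lay above every library without GLY, and GLY replicate 2 lay inside the untreated range. AKR1C1 passed for GLY_PUE against PUE alone (1.39 ± 0.58 SE, log2; edgeR adjusted p = 0.0429). That call ended in 8 of 24 alternatives, each with 1 library left out, with the highest edgeR adjusted p (0.121; change 0.92) without PUE replicate 3, the library at 2.18 reads. Its close relatives in the AKR1C family share long stretches of sequence, and how the authors' counting divided such reads is not given in the sources used here, so the level of AKR1C1 is uncertain.

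**Figure D2:**
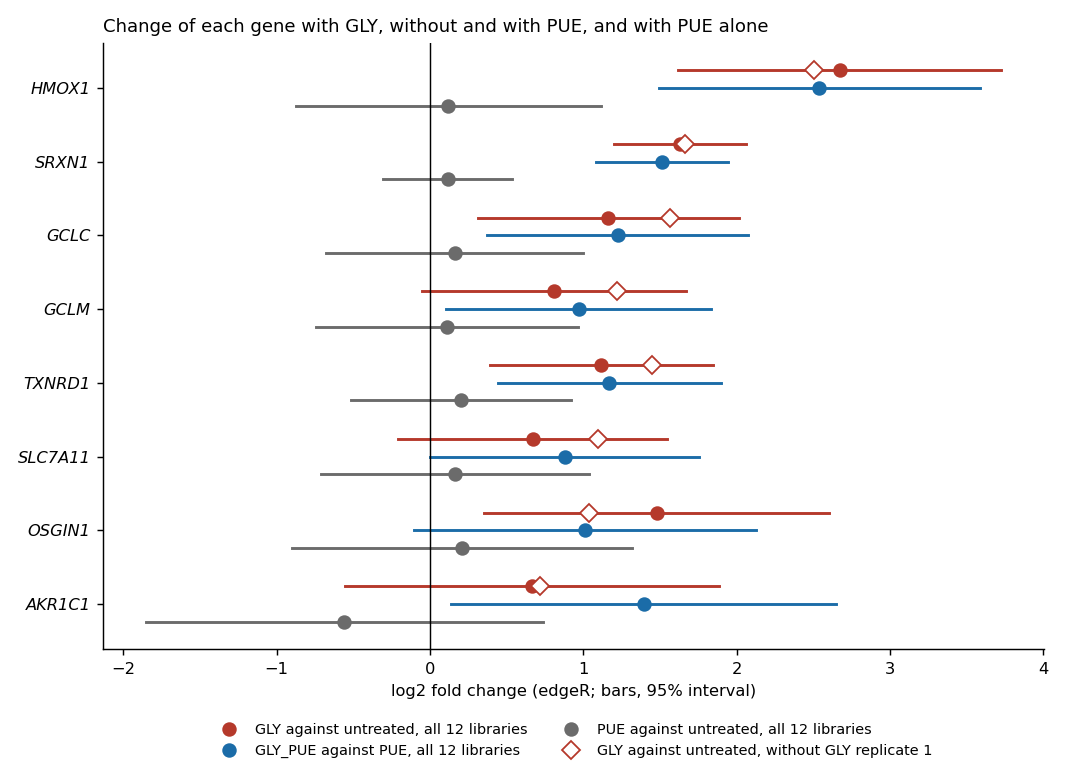
Log2 fold changes (x axis, edgeR) of the 8 genes (y axis) for GLY against untreated, GLY_PUE against PUE and PUE against untreated from all 12 libraries, with bars for 95% intervals; open diamonds give GLY against untreated without GLY replicate 1. All points with GLY are above 0, the intervals for PUE alone span 0, and removing the library moves GCLM from 0.81 to 1.22 and OSGIN1 from 1.48 to 1.04.

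Separation of groups gave a simpler count. For GLY against untreated, 3 of the 8 genes (HMOX1, SRXN1 and OSGIN1) had all GLY libraries above all untreated libraries, where 17.8% of all genes did. For GLY_PUE against untreated all 8 did, where 21.8% of all genes did, and for GLY_PUE against PUE all 8 did, where 22.0% of all genes did. GCLM and SLC7A11 were in the table only through GLY_PUE over untreated, and AKR1C1 only through GLY over PUE and GLY_PUE over PUE. Their separation in the comparison that admitted them is therefore no independent result. Because those groups did not overlap, GLY_PUE was also above untreated and above PUE for 8 of 8 genes in each of numbers 1, 2 and 3. This follows from the separation and is no further result. Of all genes, 25.4%, 25.2% and 26.0% were above untreated and 25.1%, 25.8% and 25.8% above PUE in those numbers. GLY was above untreated for 4 of 8 genes in number 1, 7 in number 2 and 8 in number 3, where 23.5%, 24.8% and 24.8% of all genes were. The number that passed the test for GLY_PUE against untreated went from 7 to 4 without untreated replicate 3, GLY_PUE replicate 1 or GLY_PUE replicate 2. For GLY_PUE against PUE it went from 6 to 3 without PUE replicate 3, and to 4 without untreated replicate 1, PUE replicate 2, GLY replicate 2 or any 1 of the GLY_PUE libraries.

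Order of abundance was compared on the authors' expression values, which divide by length and behave as FPKM, a level scaled by both library total and transcript length. In untreated libraries the means were 75.6 ± 12.9 for TXNRD1, 46.6 ± 3.26 for SRXN1, 19.5 ± 0.745 for GCLC, 15.6 ± 2.09 for GCLM, 14.6 ± 8.18 for OSGIN1, 11.2 ± 4.56 for HMOX1, 3.42 ± 0.256 for SLC7A11 and 0.497 ± 0.272 for AKR1C1 (FPKM, SD, n = 3). GCLC, GCLM, OSGIN1 and HMOX1 were neighbours whose ranges met through OSGIN1, at 5.18 to 19.4 FPKM. With GLY_PUE, HMOX1 moved up to the third place at 70.8 ± 21.8 FPKM, behind TXNRD1 at 197 ± 15.9 and SRXN1 at 144 ± 11.1 FPKM (SD, n = 3). SLC7A11 at 9.36 ± 1.06 and AKR1C1 at 0.930 ± 0.111 FPKM stayed at the foot of the order. Across groups, each gene was lower in both groups without GLY than in both with it by its mean, and for every gene the ranges of untreated and PUE overlapped, as did those of GLY and GLY_PUE.

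GLY replicate 1 split the 8 genes. On the log2 CPM scale it differed from the mean of GLY replicates 2 and 3 by -2.08 for SLC7A11, -1.92 for GCLM, -1.86 for GCLC and -1.37 for TXNRD1. The difference was -0.11 for AKR1C1, -0.08 for SRXN1, 0.46 for HMOX1 and 1.06 for OSGIN1. So 4 of the 8 genes were lower by at least 1, where 31.0% of all genes were, and OSGIN1 was higher by at least 1, where 8.78% of all genes were; the median over all genes was -0.32.

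Those differences ran with transcript length. Each gene's length was read from its deposited values as the number of bases by which the expression value divides the read count. Over 1900 genes with a mean of at least 100 reads and an expression value of at least 1, the median difference of GLY replicate 1 was 0.44 below 2000 bases, -0.20 from 2000 to 3500, -0.92 from 3500 to 5000 and -1.22 from 5000 bases upwards. The share lower by at least 1 in those classes was 9.48%, 27.0%, 47.3% and 57.7%. HMOX1 at 1553 bases and OSGIN1 at 1903 bases were higher in GLY replicate 1, SRXN1 at 2661 bases was level, and GCLC at 3392, TXNRD1 at 3922, GCLM at 5020 and SLC7A11 at 7801 bases were lower. GCLC, GCLM, TXNRD1 and SLC7A11 were each further below the other GLY libraries than the median of their length class. This library also carries the shortest labelled treatment of the 3, so length, labelled time and library cannot be told apart in it.

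**Figure D3:**
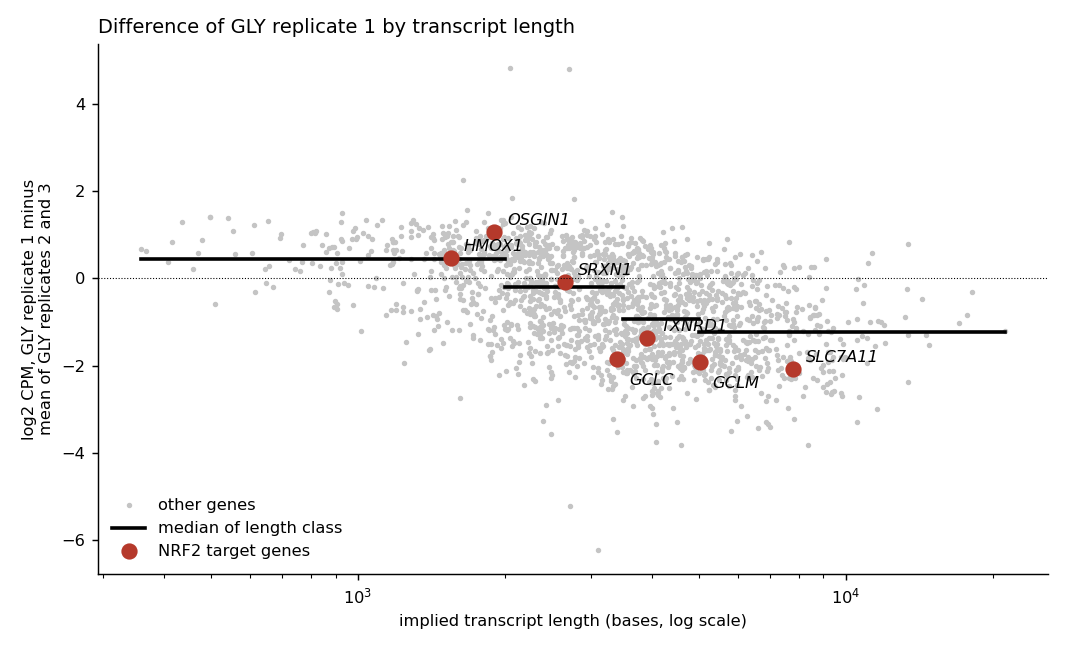
Difference in log2 CPM between GLY replicate 1 and the mean of GLY replicates 2 and 3 (y axis) against transcript length implied by the deposited values (x axis, bases, log scale) for 1900 genes (grey), with medians of 4 length classes (black bars) and 7 of the 8 NRF2 target genes (red; AKR1C1 was too low). The class medians fall from 0.44 to -1.22 as length grows, with HMOX1 and OSGIN1 above 0 and GCLC, TXNRD1, GCLM and SLC7A11 below -1.

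The libraries numbered 3 moved another pair of genes. Compared with numbers 1 and 2 across the groups, HMOX1 was lower by a log2 difference of -1.04 ± 0.22 (SE, edgeR adjusted p = 0.00997) and OSGIN1 by -1.16 ± 0.25 (SE, edgeR adjusted p = 0.0111), where 4.67% of all genes were lower. The other 6 genes did not pass; SRXN1 was at -0.14 (95% interval -0.43 to 0.16) and GCLC at 0.30 (-0.35 to 0.94). By group, the library numbered 3 differed from the mean of the other pair by -1.21, -1.84, -0.43 and -0.85 for HMOX1 in untreated, PUE, GLY and GLY_PUE, and by -1.90, -1.53, -0.78 and -0.54 for OSGIN1. AKR1C1 was at -1.82 and -2.34 in untreated and PUE but 0.57 and 0.01 in GLY and GLY_PUE. Both calls ended without untreated replicate 3 (HMOX1 -0.99, edgeR adjusted p = 0.0532; OSGIN1 -0.94, edgeR adjusted p = 0.0536), and that of OSGIN1 also without PUE replicate 3 (-1.04, edgeR adjusted p = 0.0572). The median over all genes was 0.24, and its medians by length class were 0.08 to 0.29, without the fall by length seen in GLY replicate 1. The labels do not say what the number stands for.

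PUE by itself gave no change of the 8 genes that passed. Its log2 fold changes ran from -0.56 for AKR1C1 to 0.21 for OSGIN1, with a median of 0.14 beside 0.00 over all genes, and none of the 8 passed by edgeR, DESeq2 or limma, where 0% of all genes passed in edgeR and 12 of 3429 had an unadjusted p under 0.05. The narrowest interval was that of SRXN1, 0.12 (95% interval -0.30 to 0.54), and HMOX1 was at 0.12 (-0.88 to 1.12). OSGIN1 was at 0.21 (-0.90 to 1.31) and AKR1C1 at -0.56 (-1.85 to 0.74), so the intervals do not show that the groups were alike. All these intervals come from the fit without a block, and with the replicate number as a block none of the 8 passed either. Within numbers, PUE was above untreated for 7 of 8 genes in number 1 and 7 in number 2 but for 2 in number 3, where 53.2%, 49.2% and 49.7% of all genes were higher. No gene of the 8 had groups that did not overlap for PUE, where 3.30% of all genes had, 56 higher and 57 lower.

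Adding PUE to GLY gave no change of the 8 that passed either, where 0% of all genes passed in edgeR. The log2 fold change of GLY_PUE against GLY was -0.01 for HMOX1 (95% interval -1.0 to 0.97), 0.00 for SRXN1 (-0.42 to 0.42), 0.22 for GCLC (-0.62 to 1.06), 0.27 for GCLM (-0.59 to 1.12), 0.26 for TXNRD1 (-0.46 to 0.97), 0.37 for SLC7A11 (-0.50 to 1.24), -0.26 for OSGIN1 (-1.37 to 0.84) and 0.17 for AKR1C1 (-1.0 to 1.35). The upper bounds passed 1 for GCLC, GCLM, SLC7A11 and AKR1C1, so the intervals do not show that the groups were alike. Within numbers, GLY_PUE exceeded GLY for 7 of 8 genes in number 1, 8 in number 2 and none in number 3, where 56.7%, 55.3% and 57.5% of all genes were higher. For GCLC, GCLM, TXNRD1 and SLC7A11 the log2 differences in number 1, which holds GLY replicate 1, were 1.61, 1.83, 1.39 and 2.00. They were 0.03, 0.15, 0.09 and 0.16 in number 2 and -0.25, -0.44, -0.32 and -0.22 in number 3. With 1 library left out in turn, the lowest fold changes of these genes were -0.18, -0.14, -0.07 and -0.05 (log2). The interaction of GLY and PUE passed for none of the 8 and for none of 3429 genes in edgeR, with 33 at an unadjusted p under 0.05; its values ran from -0.47 for OSGIN1 to 0.73 for AKR1C1. In GLY_PUE against GLY, 57 of 3429 genes had an unadjusted p under 0.05 in edgeR. DESeq2 and limma called none of the 8 in either comparison.

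In the authors' deposited table, the log2 ratio of GLY over untreated was 2.68 for HMOX1, 1.63 for SRXN1, 1.48 for OSGIN1, 1.17 for GCLC and 1.12 for TXNRD1, all past the limits of 1 and q of 0.001 that every listed gene met at least once. GCLM at 0.81 and SLC7A11 at 0.67 were below the limit of 1 there. AKR1C1 passed those limits in the authors' deposited table for GLY over PUE (1.21) and GLY_PUE over PUE (1.38) alone. GCLM (1.08) and SLC7A11 (1.04) each passed them for GLY_PUE over untreated alone. For PUE over untreated the authors' deposited table gives TXNRD1 a log2 ratio of 0.21 with a q of 8.47e-43, whereas the edgeR fit across replicates gave it an adjusted p of 1.00.

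Among the 7 genes with enough reads (all but AKR1C1), SLC7A11 alone had an implied length that separated libraries with GLY from those without. Count over expression value gave 9184 to 9602 bases in the 6 libraries without GLY and 5030 to 8084 bases in the 6 with it. All libraries with GLY were shorter, with GLY replicate 1 the shortest at 5030 bases; of 1199 genes with at least 100 reads and a value of at least 1 in every library, 6.59% separated in this way and 1.17% did so with medians at least 20% apart. TXNRD1 ran from 3919 to 3957 bases without GLY and 3818 to 3929 bases with it, and HMOX1, SRXN1, GCLC, OSGIN1 and GCLM overlapped between the 2 sets. As a result the expression values gave SLC7A11 a larger change than its counts. On the log2(value + 0.1) scale, limma gave 0.94 for GLY against untreated (adjusted p = 0.0249) and 1.25 for GLY_PUE against PUE (adjusted p = 0.00749), beside 0.67 and 0.88 from the counts. Isoforms were not reported in the files, and whether the expressed transcripts differed was not tested.

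**Figure D4:**
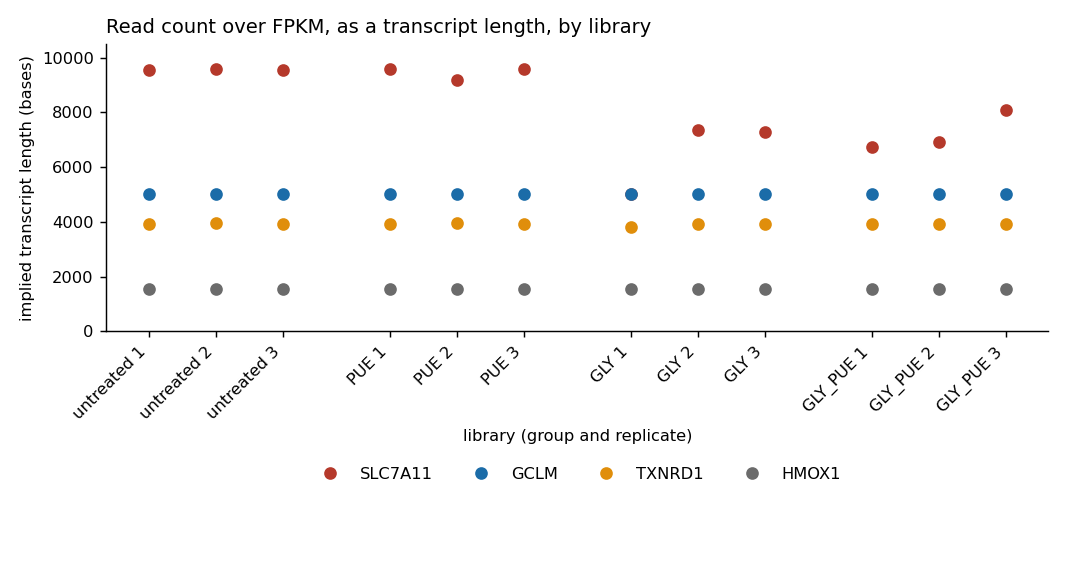
Transcript length implied by read count over expression value (y axis, bases, from 0) in each of the 12 libraries (x axis) for SLC7A11, GCLM, TXNRD1 and HMOX1. SLC7A11 lies at 9184 to 9602 bases without GLY and at 5030 to 8084 bases with it, while GCLM, TXNRD1 and HMOX1 stay nearly flat.

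Members of the group fell into like and unlike profiles. The root mean square difference of log2 CPM over the 12 libraries, each gene centred on its own mean, was 0.18 between GCLM and SLC7A11, 0.20 between GCLC and GCLM, 0.21 between GCLC and TXNRD1 and 0.22 between GCLM and TXNRD1. HMOX1 and OSGIN1, the pair that was low in number 3, differed by 0.73, and OSGIN1 and SLC7A11 by 1.07. Among all other genes averaging 1 log2 CPM or more, the nearest to GCLC were GFPT1 (0.10), NRBF2 (0.11) and PRKAB2 (0.11), and the nearest to GCLM were ADAM17 (0.11), NFKBIZ (0.14) and FEM1C (0.14). ADAM17 (0.17) was also the nearest to SLC7A11, followed by C1orf52 (0.17) and TAF1A (0.17). LHFPL2 (0.13), RTN4 (0.13) and SGMS2 (0.15) were nearest to TXNRD1, and CEBPB (0.13), BAG3 (0.13) and PIK3CD (0.13) to SRXN1. HMOX1 had WNT9A (0.29), SLC30A2 (0.29) and PLAU (0.29), and OSGIN1 had LAMB3 (0.20), LCN2 (0.22) and CSRNP1 (0.23). AKR1C1 had no close neighbour, the nearest being CSRNP1 at 0.40, GLIS3 at 0.40 and ALOXE3 at 0.42. These distances share libraries and the common shift of GLY replicate 1, and are descriptions.

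Regulators of the pathway were few in the table: 4 of 13 on the list, which left NFE2L2 and KEAP1 not analysed here. MAFF and MAFK, small MAF partners of NRF2, rose with GLY by 1.66 ± 0.27 (edgeR adjusted p = 0.000346) and 1.65 ± 0.21 (SE, log2; edgeR adjusted p = 8.54e-05). MAFF stood at 41.6, 44.1 and 26.8 CPM in untreated and 139, 112 and 105 CPM in GLY libraries, and MAFK at 46.1, 50.2 and 35.2 CPM and 147, 129 and 139 CPM. For both, GLY replicate 1 was the highest of its group and no libraries overlapped. NFE2 and NFE2L3, relatives of NRF2, fell by 3.95 and by 1.37 on the log2 scale, beside a median of -1.15 over all genes. NFE2 was low, at 9.12 to 12.5 CPM in untreated and 0.141 to 1.46 CPM in GLY libraries. Of all genes, 19.7% rose and 64.6% fell with GLY. GLY_PUE against PUE gave the same count, 2 higher and 2 lower of 4, where 20.6% of all genes rose and 57.3% fell. TMM scaling gave 2 higher and 1 lower for GLY against untreated, where 812 of 3429 genes were higher and 346 lower.

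Other NRF2 targets did not move as a block with the 8. Of 43 further targets on the list, 7 were in the table, of which 2 rose and 5 fell with GLY (2 and 4 without the libraries numbered 3). Of all genes, 19.7% rose and 64.6% fell. The median of the 7 was -1.09 beside -1.15 over all genes. TRIM16, a ubiquitin ligase, rose by 1.37 ± 0.23 (SE, log2; edgeR adjusted p = 0.000458), from 63.5, 70.3 and 44.3 CPM in untreated to 162, 128 and 169 CPM in GLY libraries. FTH1, the ferritin heavy chain that stores the iron HMOX1 frees, rose by 1.08 ± 0.38 (SE, log2; edgeR adjusted p = 0.0208). FTH1 missed for GLY_PUE against PUE (0.81, edgeR adjusted p = 0.0675) and for GLY_PUE against untreated (0.84, edgeR adjusted p = 0.0593). UGT1A6, a glucuronosyltransferase, fell by 2.43 on the log2 scale, and GPX2, a glutathione peroxidase of the gut lining, fell by 2.11. ABCC5, ALDH3A1 and SLC48A1, an exporter, an aldehyde dehydrogenase and a haem carrier, also fell. Under TMM scaling 2 rose and 1 fell, with a median of 0.13, so the direction of this list's median turns with the scaling. Without GLY replicate 1 the count was 1 higher and 5 lower. For GLY_PUE against PUE 1 rose and 4 fell, or 2 and 5 with the replicate number as a block.

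Glutathione genes beyond the 8 went both ways, as did all genes tested, of which 19.7% rose and 64.6% fell with GLY. Of 28 on the list 8 were in the table, and SLC3A2, CHAC1 and CTH rose with GLY while GPX2, GSTA4, MGST1, MGST2 and SLC1A5 fell. CHAC1 cleaves glutathione and CTH makes cysteine; they rose by 1.09 ± 0.25 (edgeR adjusted p = 0.00211) and 1.00 ± 0.37 (SE, log2; edgeR adjusted p = 0.0266). CTH in GLY replicate 1 was at 13.6 CPM, inside the untreated range of 12.1 to 16.5 CPM, against 26.3 and 41.7 CPM in GLY replicates 2 and 3. Without the libraries numbered 3 the list had 2 higher and 5 lower. GLY_PUE against PUE gave the same split of 3 and 5, and under TMM scaling 3 rose and none fell with GLY. In the thioredoxin list, 4 of 19 were in the table, with 1 higher and 3 lower (1 and 2 under TMM): SESN2, a sestrin, rose by 2.32 ± 0.35 (SE, log2; edgeR adjusted p = 0.000223), while MSRB3 and SESN3 fell and TXNIP, the inhibitor of thioredoxin, fell by 2.80 on the log2 scale. TXNIP was at 406, 391 and 381 CPM in untreated and 29.0, 40.8 and 99.0 CPM in GLY libraries.

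Haem and iron genes were 5 of 23 in the table, with FTH1 higher and ALAD, CPOX, SLC40A1 and SLC48A1 lower with GLY, or 1 and 1 under TMM scaling, 0 and 4 without GLY replicate 1, and 1 and 3 without the libraries numbered 3. CAT (catalase) and NOXO1, 2 of 13 superoxide and catalase genes, fell with GLY; neither passed under TMM scaling, and 1 did without GLY replicate 1. The lists of other stress programmes held more of the genes that rose. Of 31 ATF4 targets, the factor that also drives SLC7A11 and CHAC1 under amino acid shortage, 18 were in the table, with 16 higher and 2 lower with GLY and a median of 1.14. Under TMM scaling 16 were higher and 0 lower with a median of 2.31, and without the libraries numbered 3 the count was 15 and 2. Of 20 heat shock genes 8 were in the table and all 8 rose, with a median of 1.80; all 8 rose under TMM (median 2.90), and 7 without the libraries numbered 3 (median 1.42). HSPH1, a chaperone of that list, was at 488 CPM in GLY replicate 1, inside its untreated range of 454 to 588 CPM, and at 1597 and 2110 CPM in the other GLY libraries. Of 13 metallothionein and zinc genes, 7 were tested, with 5 higher, 1 lower and a median of 1.43, or 5 higher and 0 lower with a median of 2.63 under TMM and 5 and 2 without GLY replicate 1. GPX2, FTH1 and SLC48A1 each stand on more than 1 list, as do SLC3A2, CHAC1, CTH, SLC1A5 and SESN2 with the ATF4 targets. These lists were drawn up with earlier results of these data known, and their counts stand beside 19.7% of all genes higher and 64.6% lower with GLY. Under TMM scaling 812 of 3429 genes were higher and 346 lower with GLY. For GLY_PUE against PUE, 20.6% of all genes were higher and 57.3% lower.

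**Figure D5:**
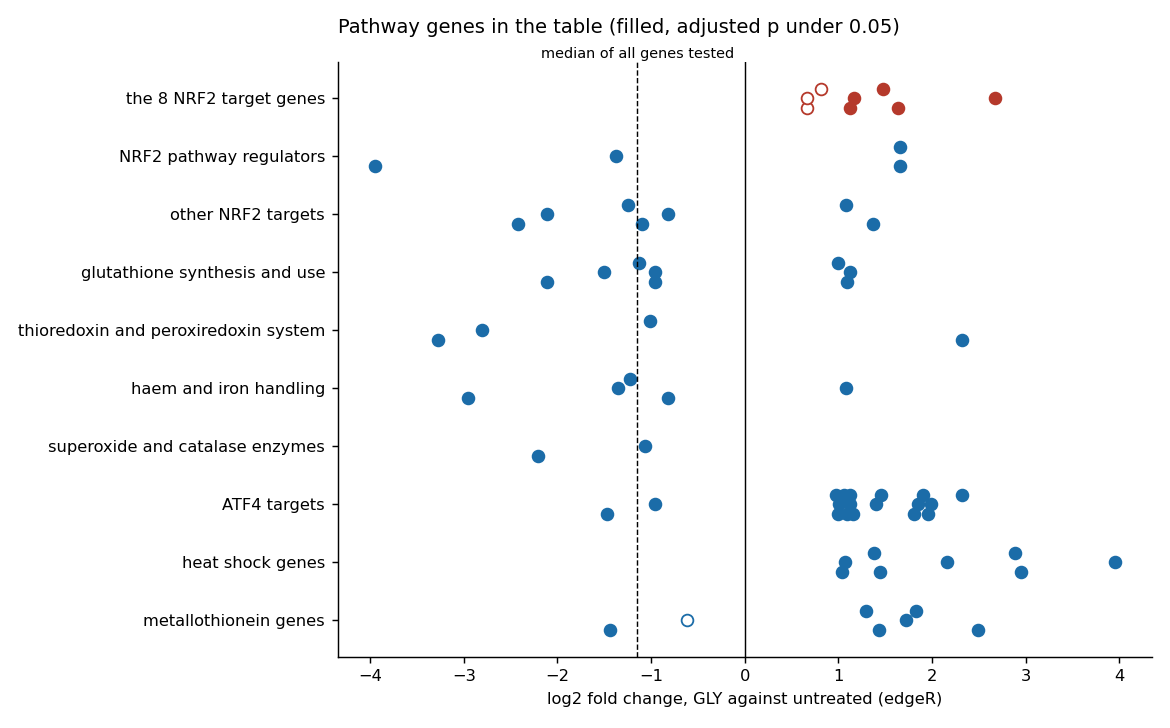
Log2 fold change with GLY against untreated (x axis, edgeR) of the listed genes found in the table, by gene list (y axis); each point is a gene, filled where its adjusted p was under 0.05, and the dashed line is the median of all genes tested at -1.15. The 8 NRF2 target genes lie between 0.66 and 2.67, while other NRF2 targets lie on both sides of 0.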

How the data were processed

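RNA of 12 SW480 libraries was sequenced on a BGISEQ-500 workflow, per the labels' protocols. The cell line field gives SW480 throughout, while free-text descriptions carry running line numbers and the extraction text also mentions retinas; BER and WOG, named in the protocol, were not analysed here. The authors deposited 1 table of genes: estimated counts per library (58.2% were whole numbers; rounded here), expression values whose unit the header does not give and which behave as FPKM, and the authors' log2 ratios with p-values and q-values between groups. TopHat and DESeq 1.32.0 are named, with no role, in the submitters' processing notes; no source used here gives the counting tool, build or annotation. Library totals, relative over 625 genes with at least 100 counts and 5 FPKM, were set on an absolute scale with 39 single-transcript genes of GENCODE, giving 20.2 M reads (95% interval 20.0 to 20.7) for the first untreated library. The table holds part of each library, so its column sums were not used as depth.

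Rounded counts were tested in R 4.3.3 with edgeR 4.0.16 (genes kept by filterByExpr, robust quasi-likelihood fit of 4 groups over all 12 libraries, recovered totals as library sizes), with Benjamini-Hochberg adjustment over 3429 genes and a threshold of 0.05. The SE is the log2 fold change over the square root of F. All 8 genes, every listed gene in the table, and the 3 nearest profiles of each gene could be named. The members and lists were chosen with earlier results of these data known. Alternatives were other scalings, DESeq2 1.42.0, limma 3.58.1 (voom, or log2 of FPKM plus 0.1 or 1), other filters, only the libraries compared, a replicate block and left-out libraries. The fits were tested on simulated counts with 200 changed genes. Replicate numbers come from the titles; same-numbered libraries deviated together over genes (correlations 0.55 to 0.82 for PUE with untreated, 0.23 to 0.41 for GLY_PUE with untreated, 0.22 to 0.42 for GLY_PUE with PUE, 0.11 to 0.42 for GLY_PUE with GLY), so the numbers count as pairs there, though not for GLY with untreated. In the order given, 6, 5, 3 and 5 of 6 libraries correlated best with their own number, so pairing was least clear for GLY_PUE with PUE among them. The values reported come from the fit without a block, as designed, and the blocked value is given beside a result where it changes the call.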

Additional observations from a re-analysis of the deposited data

How the results depend on the processing

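Signs of the 8 genes were positive under all alternatives for GLY against untreated, GLY_PUE against untreated and GLY_PUE against PUE. Scaling within the table by TMM, RLE or DESeq2's own size factors left 1158, 1188 and 1241 genes called for GLY against untreated in place of 2890, 1211, 1234 and 1287 for GLY_PUE against untreated in place of 2651, and 1232, 1250 and 1283 for GLY_PUE against PUE in place of 2669; the number of the 8 genes that passed for GLY against untreated went from 5 to 8 under each of the 3. Without the libraries numbered 3 it was 3. With each library left out in turn, the number of the 8 that passed was 4 to 6 for GLY against untreated, 4 to 7 for GLY_PUE against untreated, 3 to 7 for GLY_PUE against PUE and 0 to 2 for number 3, and genes called were 2406 to 2941, 2132 to 2995, 2189 to 3011 and 253 to 1546, with 0 to 1 for GLY_PUE against GLY and for the interaction. The replicate block gave 5, 7 and 7 of the 8 in the first 3 comparisons and changed no call of the 8 but that of OSGIN1 in GLY_PUE against PUE. For GLY against untreated the same-numbered correlations were 0.07, 0.10 and 0.30, and 2 of 6 libraries correlated best with their own number; the block raised the genes called from 2890 to 3086. A replicate block without GLY replicate 1, chosen after seeing the data, called GCLM (1.29) and SLC7A11 (1.11) for GLY against untreated. AKR1C1 was not tested under the filter of 50 counts in 3 libraries. Leaving a library out leaves 2 in its group. Depth limits AKR1C1 alone among the 8.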
